A study of Mus musculus with 8 samples.

Results

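Genes through which myeloid-derived suppressor cells (MDSCs) can restrain T cells were followed in sorted myeloid cells of sanroque mice, a lupus-prone strain. They were the 9 genes Nos2, Arg1, Arg2, Entpd1, Nt5e, Tgfb1, Il10, Il4ra and Il4i1, found as the rows of the deposited count table whose symbol equals one of these names, 9 of 54188 genes. All mice were homozygous for the san allele of Roquin on the C57BL/6 background and were 20 weeks old, so all 4 groups carry the mutation and no wild-type cells were sequenced. RNA-seq was done on CD11b+Gr-1hi cells, which the labels call G-MDSCs, and on CD11b+Gr-1lo cells, both taken from spleen (SP) and from bone marrow (BM), with 2 libraries per group. SP Gr-1hi cells are libraries 5 and 6, SP Gr-1lo cells are libraries 7 and 8, BM Gr-1hi cells are libraries 9 and 10, and BM Gr-1lo cells are libraries 11 and 12. The study's methods call both libraries of a group independent biological replicates. Its text calls the BM cells autologous, so groups may share mice, but no label says which libraries come from which mouse. The p values measure the spread between these libraries.

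MDSCs are immature granulocytic or monocytic cells that inhibit lymphocytes by several routes. Inducible nitric oxide synthase and the arginases compete for arginine, an amino acid that T cells need to divide. The surface enzymes CD39 and CD73 act in sequence, turning extracellular ATP into AMP and AMP into adenosine, which dampens T cells through its receptors. TGF-beta and IL-10 are suppressive cytokines, the IL-4 receptor alpha chain lets myeloid cells respond to IL-4 and IL-13, and the secreted oxidase IL4I1 consumes aromatic amino acids.

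The libraries held 33453580 to 68316154 counts, and 3 counts corresponded to 0.0348 to 0.124 CPM, the TMM-scaled count relative to library size. The levels of Ly6g followed the Gr-1 labels, at 330 to 801 CPM in Gr-1hi and 3.07 to 8.23 CPM in Gr-1lo cells, and Itgam, which encodes CD11b, was at 734 CPM or more in every library. All libraries are labelled female, yet only libraries 5 and 7 held Xist RNA (12032 and 9898 counts, against 5 or fewer in the others). Ddx3y, a Y-linked gene, was at 0 only in library 5, and library 7 held both RNAs (1595 Ddx3y counts). Each SP group thus paired a library with Xist RNA and another without it, while all BM libraries lacked it, so SP and BM differed in these sex-linked RNAs. The counts of called members and of called pathway genes below were therefore also made without libraries 5 and 7. Lymphoid markers were higher in SP than in BM. The summed level of 10 B cell markers was 360 to 537 CPM in SP Gr-1hi against 16.3 to 19.9 CPM in BM Gr-1hi cells, and 66.7 to 83.8 against 8.07 to 9.90 CPM in Gr-1lo cells.

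Promoter sequence was printed for Tgfb1 and Entpd1, because they are abundant genes that differed between the subsets in opposite directions and their windows lie outside annotated exons, a choice made with their values known. RefSeq windows on GRCm38 were found for 5 of the 9 genes. Each run below is the plus strand upstream of a start site, at chr7:25686752-25687001 for Tgfb1 and chr19:40659520-40659769 for the second listed start of Entpd1. Capitals mark the GC box letters GGGCGG on either strand in Tgfb1, and the PU.1 letters GAGGAAG in Entpd1.
Tgfb1: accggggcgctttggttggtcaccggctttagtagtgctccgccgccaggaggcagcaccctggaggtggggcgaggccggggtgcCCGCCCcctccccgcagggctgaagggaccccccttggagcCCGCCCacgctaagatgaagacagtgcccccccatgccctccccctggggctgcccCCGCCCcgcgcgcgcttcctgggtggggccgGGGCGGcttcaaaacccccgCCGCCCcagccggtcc
Entpd1: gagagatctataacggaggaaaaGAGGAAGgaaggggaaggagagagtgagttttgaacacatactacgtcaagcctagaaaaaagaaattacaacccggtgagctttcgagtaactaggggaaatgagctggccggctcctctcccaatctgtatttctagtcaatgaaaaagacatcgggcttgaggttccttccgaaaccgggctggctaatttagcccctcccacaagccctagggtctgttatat
The Tgfb1 window held the GC box 5 times, between 164 and 16 bases before the start, and 32.7% of all 32851 windows held it at least once. The Entpd1 window held the PU.1 letters once, 227 bases before the start, as did 10.6% of all windows in 1 or more copies. Both strands were searched for 8 patterns in all, and neither window held the STAT, STAT6, IRF, NF-kB, HIF or TATA box pattern. A match of letters is a description and not a binding site.

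The GENCODE annotation of GRCm38 places Tgfb1, Il4ra and Il4i1 on chromosome 7 and the other 6 on chromosomes 1 (Il10), 9 (Nt5e), 10 (Arg1), 11 (Nos2), 12 (Arg2) and 19 (Entpd1), all as protein-coding genes. Nt5e spans chr9:88327197-88372092 and Il4i1 chr7:44816387-44840809, both on the plus strand, and counts cover all their exons. Of the 9 genes, 7 passed the filter on low counts and were tested, and Arg1 and Il10 did not. Per exon length, in TPM (mean ± SD of 2 libraries), Arg2 was the highest of them in SP Gr-1hi cells at 266 ± 57.6, followed by Il4ra at 222 ± 92.5, and those levels overlapped within their spread. Entpd1 came next at 155 ± 35.1 TPM, ahead of Tgfb1 at 40.1 ± 6.64, Nos2 at 15.4 ± 12.8, Nt5e at 5.13 ± 1.83 and Il4i1 at 4.39 ± 2.22. In BM Gr-1hi cells the order was Arg2, Il4ra, Entpd1, Tgfb1, Nt5e, Nos2 and Il4i1, from 179 ± 21.1 down to 0.583 ± 0.288 TPM. Gr-1lo cells were led by Il4ra and Tgfb1 instead, at 131 ± 19.0 and 127 ± 0.386 TPM in SP and at 96.2 ± 18.5 and 110 ± 6.39 TPM in BM, which did not differ beyond their spread. Arg2 was at 7.16 ± 2.32 and 4.65 ± 1.44 TPM in SP and BM Gr-1lo cells.

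**Figure D1:**
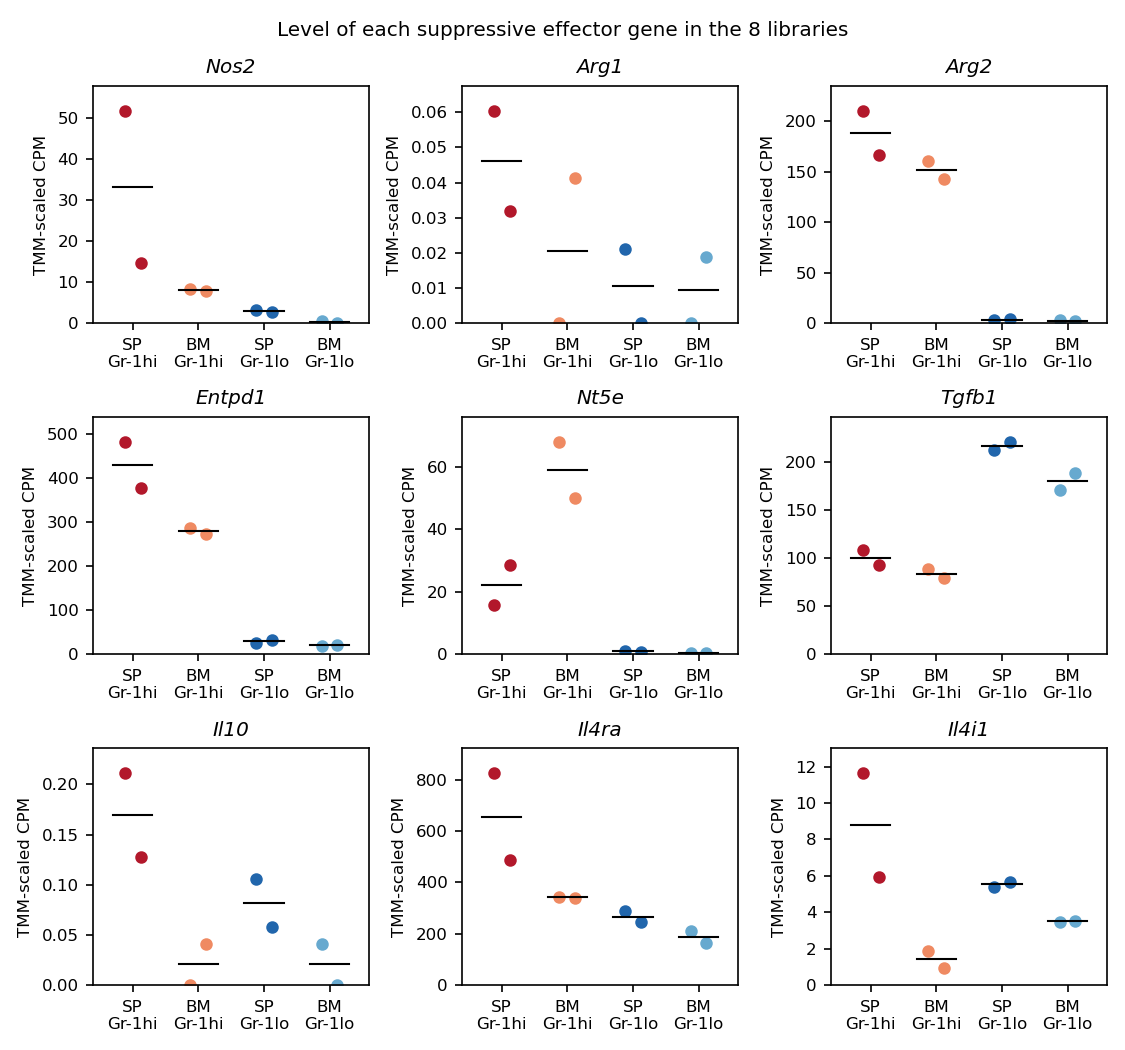
TMM-scaled CPM of the 9 genes in each library, by group, with points for libraries, bars for the mean of 2 and a linear axis from 0 in every panel. Nos2, Arg2, Entpd1 and Nt5e are higher in the 4 Gr-1hi libraries than in the 4 Gr-1lo libraries, Tgfb1 is lower there, and Arg1 and Il10 do not exceed 0.0603 and 0.211 CPM.

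For SP against BM, "called" means that the fold change (FC) was 2 or more with an adjusted p no higher than 0.05. For Gr-1hi against Gr-1lo cells of 1 tissue, the FC had to exceed 8 with an adjusted p under 0.01. Tests were edgeR's quasi-likelihood tests on all 17650 genes that passed the filter, with Benjamini-Hochberg adjustment, and every adjusted p below comes from them unless another tool is named. Between Gr-1hi and Gr-1lo cells, Nos2, Arg2, Entpd1 and Nt5e were called higher in Gr-1hi cells in BM and again in SP. The share of all genes called was 16.7% in BM, with 6.56% higher and 10.1% lower in Gr-1hi cells, and 7.37% in SP, with 4.44% higher and 2.93% lower. The counts of pathway genes below read against the same shares. With the limits used for SP against BM, the calls were 6 in each tissue, against 57.3% and 49.6% of all genes. Without libraries 5 and 7, the 4 calls in BM remained, and Nos2 was no longer called in SP. In TMM-scaled CPM, the 2 Gr-1hi libraries overlapped the 2 Gr-1lo libraries of the tissue for no tested gene. By that measure 5 were higher and 2 lower in Gr-1hi cells of BM, against 40.6% and 48.2% of all genes arranged in those ways. In SP 6 were higher and 1 lower, against 40.6% and 45.6%. In TPM, Il4ra overlapped in BM (98.4 and 91.9 in Gr-1hi against 109 and 83.1 in Gr-1lo cells). Il4i1 overlapped in SP (5.96 and 2.82 against 3.99 and 4.01 TPM).

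In the comparison of SP with BM, 2 of the 7 genes were called in Gr-1hi cells, where 15.5% of all genes were called. Il4i1 was higher in SP (14% of all genes were called higher) and Nt5e was lower (1.48%). Counts of pathway genes between SP and BM below read against the shares given here for each subset. In Gr-1lo cells none of the 7 was called by edgeR, against 4.06% of all genes (3.84% higher in SP), although 5 of them had an unadjusted p of at most 0.05. DESeq2 called 2 of them, and limma on quantile-normalized TPM called 0. In TMM-scaled CPM, all 7 were higher in both SP Gr-1lo libraries than in both BM Gr-1lo libraries, an arrangement that 27.1% of all genes showed. In TPM, Arg2 overlapped (5.52 and 8.79 in SP against 5.66 and 3.63 in BM). The summed level of 8 granulocyte markers was also higher, at 8725 and 7483 CPM in SP Gr-1lo against 3790 and 3912 CPM in BM Gr-1lo cells, with 2 of them, S100a9 and Ltf, called. That of 8 monocyte markers was 6960 and 6870 against 10214 and 9185 CPM, with a median log2 difference of -0.30. The part of these markers in the result was not tested. In Gr-1hi cells 6 of the 7 were higher in both SP libraries, against 35.9% of all genes, and Nt5e lay lower without overlap, as 31.9% did. Leaving out libraries 5 and 7 kept both calls in Gr-1hi cells and called 1 gene, Nt5e, in Gr-1lo cells.

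**Figure D2:**
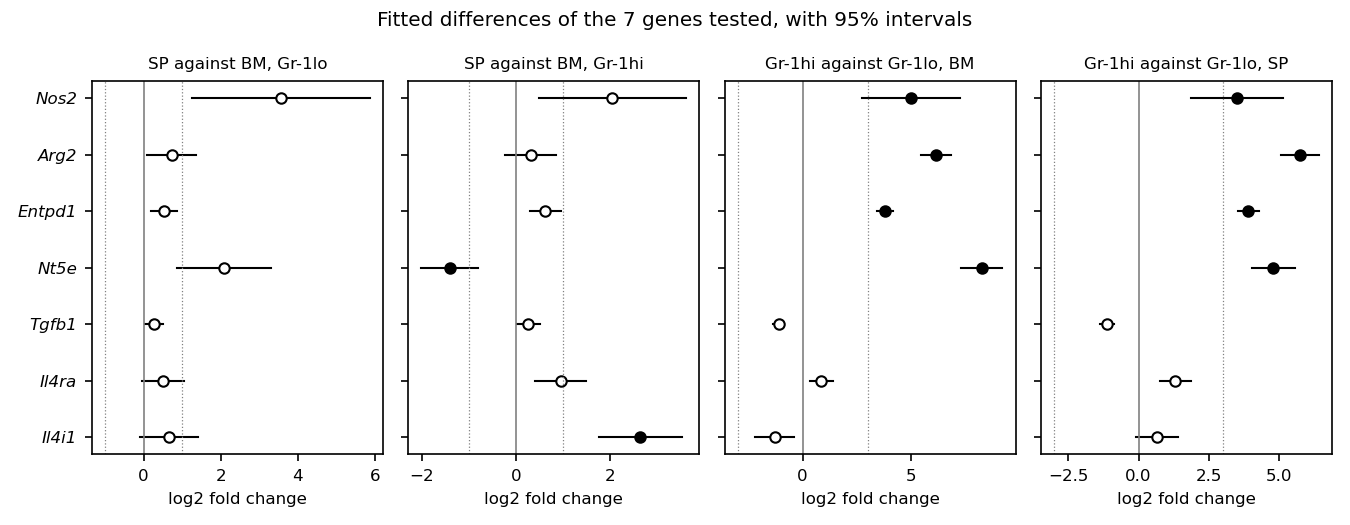
Fitted log2 FC of the 7 tested genes in the 4 comparisons, with 95% intervals; filled points are called, and dotted lines mark a log2 FC of 1 or 3, the limit of each comparison. Il4i1 (2.63) and Nt5e (-1.41) are the filled points between SP and BM, and Nos2, Arg2, Entpd1 and Nt5e are filled in both comparisons of the subsets.

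The arginine enzymes were represented by Nos2 and Arg2, and Arg1 was hardly detected. Nos2, which encodes inducible nitric oxide synthase, was at 51.6 and 14.6 CPM in SP Gr-1hi, 8.22 and 7.88 in BM Gr-1hi, 3.14 and 2.76 in SP Gr-1lo, and 0.471 and 0.0378 in BM Gr-1lo cells. The 4 groups did not overlap in that order, but the SP Gr-1hi libraries lay far apart and library 12 held only 2 counts. Between the subsets, Nos2 was higher in Gr-1hi cells by 5.01 ± 0.93 (SE) on the log2 scale in BM (adjusted p = 0.00249). In SP the difference was 3.49 ± 0.68 (adjusted p = 0.00342). The BM call ended without library 12 (log2 FC 4.06, adjusted p = 0.0151), and the difference became 7.60 without library 11. The SP call ended without library 5 (2.29), library 7 (adjusted p = 0.0333) or library 8 (adjusted p = 0.0409). Both calls also ended when low genes were kept in the fit (adjusted p = 0.0338 in BM and 0.0438 in SP) and with limma on quantile-normalized TPM (log2 FC 2.61 and 2.83). SP exceeded BM in Nos2 by 2.04 ± 0.65 in Gr-1hi (adjusted p = 0.0529) and by 3.56 ± 0.96 in Gr-1lo cells (adjusted p = 0.103), neither of which passed. With upper-quartile scaling the Gr-1hi value was 2.14 and was called (adjusted p = 0.0466). The Gr-1lo value was called with DESeq2 (adjusted p = 0.0281), with only the 4 libraries compared (0.0456) and without library 5 (0.0185) or 6 (0.0178), and it ran from 1.06 with limma to 6.18 without library 11. Without library 5 the Gr-1hi value was 0.78, and without library 6 it was 2.60 and was called (adjusted p = 0.00456).

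Arg2, the mitochondrial arginase, separated the subsets more widely. Its level was 210 and 167 CPM in SP Gr-1hi and 161 and 143 CPM in BM Gr-1hi cells. In Gr-1lo cells it was 2.62 and 4.35 CPM in SP and 2.60 and 1.70 CPM in BM. No Gr-1lo library came near a Gr-1hi library, and SP and BM libraries lay close together within each subset. The log2 FC of Gr-1hi over Gr-1lo cells was 6.15 ± 0.30 in BM (adjusted p = 6.22e-07) and 5.73 ± 0.29 in SP (adjusted p = 1.62e-06). SP against BM did not pass in Gr-1hi cells (0.31, 95% interval -0.23 to 0.85, adjusted p = 0.337) or in Gr-1lo cells (0.72, interval 0.081 to 1.37, adjusted p = 0.201). Genes on the opposite strand overlap its exons: Vti1b covers 20% of the exon bases and Gm48780 8.12%. Vti1b was at 29.2 to 51.6 CPM in the 8 libraries, and its log2 FC between the subsets was 0.68 in BM and 0.35 in SP.

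Arg1, the cytosolic arginase, had 6 counts over all 8 libraries. It had 2 and 1 counts in SP Gr-1hi, 0 and 1 in BM Gr-1hi, 1 and 0 in SP Gr-1lo, and 0 and 1 in BM Gr-1lo cells, all below the 3 counts that a count of 0 allows. Arg2 supplied 98.9% to 100% of the arginase counts of a library, with the lowest exact binomial 95% bound at 94.0% in library 12. Intervals of this kind cover counting error only.

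Other genes of arginine, nitric oxide and polyamine metabolism were lower in Gr-1hi cells where they were called at an FC above 8. With the limits used for SP against BM, 9 were lower and 3 higher (Pts, Azin1 and Sat1) in Gr-1hi cells of BM. By the same limits 6 were lower and 2 higher (Pts and Azin1) in SP. Those limits called 57.3% of all genes in BM and 49.6% in SP, in either direction. Of the 21 listed, 16 were tested, and 5 were called lower and 0 higher in Gr-1hi cells of BM, where 10.1% of all genes were called lower, with a list median of -1.18 on the log2 scale against -0.17 for all genes. Ass1, which encodes argininosuccinate synthase and serves to rebuild arginine from citrulline, was at 106 ± 29.0 CPM in BM Gr-1lo and 0.676 ± 0.269 CPM in BM Gr-1hi cells (log2 FC -7.30 ± 0.32, adjusted p = 3.65e-07). Spr, for a step in making the cofactor of nitric oxide synthase, fell by 5.16, and Srm, the spermidine synthase, fell by 4.79. In SP only Ass1 was called (-3.52 ± 0.24, adjusted p = 5.56e-06). Between SP and BM Gr-1hi cells, 14% of all genes were called higher in SP. From BM to SP in Gr-1hi cells, 5 of the 16 were called higher in SP and 0 lower, with 3.11 ± 0.34 for Ass1, 2.19 ± 0.29 for Spr and 1.65 ± 0.25 for Srm (adjusted p = 0.000614, 0.00119 and 0.00198), and 5 were called without libraries 5 and 7. In Gr-1lo cells edgeR called 0 in either direction, and 1 was called lower without library 7. Sat1, the polyamine acetyltransferase, had the highest mean of the list, at 375 CPM.

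Both ectoenzymes of the adenosine route were higher in Gr-1hi than in Gr-1lo cells, and Nt5e was lower in SP Gr-1hi than in BM Gr-1hi cells. Entpd1, which encodes CD39, was at 480 and 377 CPM in SP Gr-1hi and 285 and 273 CPM in BM Gr-1hi cells. In Gr-1lo cells it was at 25.7 and 31.9 CPM in SP and 18.6 and 21.5 CPM in BM. The 4 groups did not overlap, and the log2 FC of Gr-1hi over Gr-1lo cells was 3.80 ± 0.16 in BM (adjusted p = 2.38e-07) and 3.89 ± 0.16 in SP (adjusted p = 5.23e-07). These values differed by 0.096 (95% interval -0.38 to 0.57, adjusted p = 0.789). SP exceeded BM by 0.62 ± 0.15 in Gr-1hi cells (adjusted p = 0.0129), below an FC of 2, and 0.52 ± 0.15 in Gr-1lo cells (adjusted p = 0.0918). Without library 5 the Gr-1hi value was 0.35 (adjusted p = 0.102).

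Nt5e, which encodes CD73, was at 15.8 and 28.6 CPM in SP Gr-1hi and 67.8 and 50.0 CPM in BM Gr-1hi cells. In Gr-1lo cells it was at 0.865 and 0.753 CPM in SP and 0.184 and 0.189 CPM in BM. It was the one tested gene of the 9 that was lower in SP Gr-1hi than in BM Gr-1hi cells, and the libraries did not overlap. The fall was called, at -1.41 ± 0.26 on the log2 scale (adjusted p = 0.00559). It was called in all 15 alternative analyses, between -1.03 without libraries 5 and 7 and -1.98 without library 6. In Gr-1lo cells the sign was the opposite, at 2.08 ± 0.52 (adjusted p = 0.0654), on 41 and 65 counts in SP and 9 and 10 counts in BM. That value was called in 6 of 15 alternative analyses. These were edgeR without the filter (adjusted p = 3.17e-10), DESeq2 (0.000271), edgeR on only the 4 libraries compared (0.0164), and edgeR without library 5, without library 6 and without libraries 5 and 7. The other 9 did not call it, and limma on quantile-normalized TPM gave 0.17 (adjusted p = 0.728).

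The log2 FC of Nt5e in Gr-1hi over Gr-1lo cells was 8.28 ± 0.41 in BM (adjusted p = 6.30e-07) and 4.79 ± 0.33 in SP (adjusted p = 5.69e-06). Limma on quantile-normalized TPM gave 4.11 in BM, which was called, and 2.70 in SP, which was not. The difference between the steps was itself called, at -3.49 ± 0.57 (adjusted p = 0.00854), where 9.74% of all genes were called and 2% in that direction. It was called without any 1 library and without libraries 5 and 7 (-3.01, adjusted p = 0.0113), and limma on quantile-normalized TPM gave -1.41 (adjusted p = 0.0614). Per exon length, the ratio of Entpd1 to Nt5e was 47.0 and 20.3 in SP Gr-1hi against 6.49 and 8.42 in BM Gr-1hi cells. In Gr-1lo cells it was 45.7 and 65.4 in SP and 156 and 176 in BM. The ratio was thus lowest in both BM Gr-1hi libraries and highest in both BM Gr-1lo libraries, with SP libraries of either subset in between. Granulocyte markers moved with Nt5e, with a summed level of 61414 and 83159 CPM in SP Gr-1hi against 114583 and 125822 CPM in BM Gr-1hi cells, and 2 of the 8 markers were called lower. None of these markers was at 0 in any library, and their part in the result was not tested. In bulk samples, fewer cells of a type and less RNA per cell cannot be told apart.

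Of 24 listed genes for extracellular ATP and adenosine, 21 were tested. In Gr-1hi against Gr-1lo cells, 2 were called higher and 4 lower in BM, and 3 higher and 1 lower in SP, with medians of -0.98 and -0.56 against -0.17 and -0.088 for all genes. The called rises were in Entpd3, another ATP-cleaving ectoenzyme (3.38 ± 0.59 in BM and 4.05 ± 0.56 in SP, adjusted p = 0.00186 and 0.000683), in P2ry13, an ADP receptor (3.29 ± 0.23 and 3.35 ± 0.23), and in SP in P2ry2, a nucleotide receptor (3.27 ± 0.19). Without library 12, 0 were called higher in BM, and without libraries 5 and 7, 1 was. Adora2b, a low-affinity adenosine receptor, ran the other way, at 13.9 ± 2.18 CPM in BM Gr-1lo and 12.2 ± 0.653 CPM in SP Gr-1lo cells against 0.120 ± 0.0639 and 0.138 ± 0.0602 CPM in Gr-1hi cells. Its log2 FC was -6.85 ± 0.32 in BM and -6.42 ± 0.30 in SP (adjusted p = 3.33e-07 and 7.69e-07). P2rx7, the ATP-gated channel, and Panx1, an ATP release channel, fell by 5.33 and 4.50 in Gr-1hi cells of BM. In SP, 2 were called lower without library 5 and also without libraries 5 and 7.

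Adora2a, the adenosine receptor best known for restraining leukocytes, was higher in SP than in BM in both subsets. It was at 4.03 ± 0.446 against 0.540 ± 0.0108 CPM in Gr-1lo cells (log2 FC 2.89 ± 0.34, adjusted p = 0.00190) and at 2.96 ± 1.31 against 0.414 ± 0.0568 CPM in Gr-1hi cells (2.84 ± 0.39, adjusted p = 0.00143). P2ry14, a receptor for UDP-sugars, was the other call in Gr-1lo cells (1.52 ± 0.34, adjusted p = 0.0391), and 1 gene of the list was called there without library 7, 8 or 12. In Gr-1hi cells 10 of the 21 were called higher in SP, as were 14% of all genes, and 0 lower. The list median was 1.01 against 0.030 for all genes. Enpp1, an ectoenzyme that cleaves ATP to AMP, rose by 3.39 ± 0.29 and P2rx7 by 2.60 ± 0.31 (adjusted p = 0.000206 and 0.000882). The 10 calls fell to 4 without library 5 and to 4 without libraries 5 and 7, and 1 gene was called lower without library 6 or 9. Pnp, which breaks down inosine and may share reads with a close copy beside it, had the highest mean of the list, at 289 CPM.

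**Figure D3:**
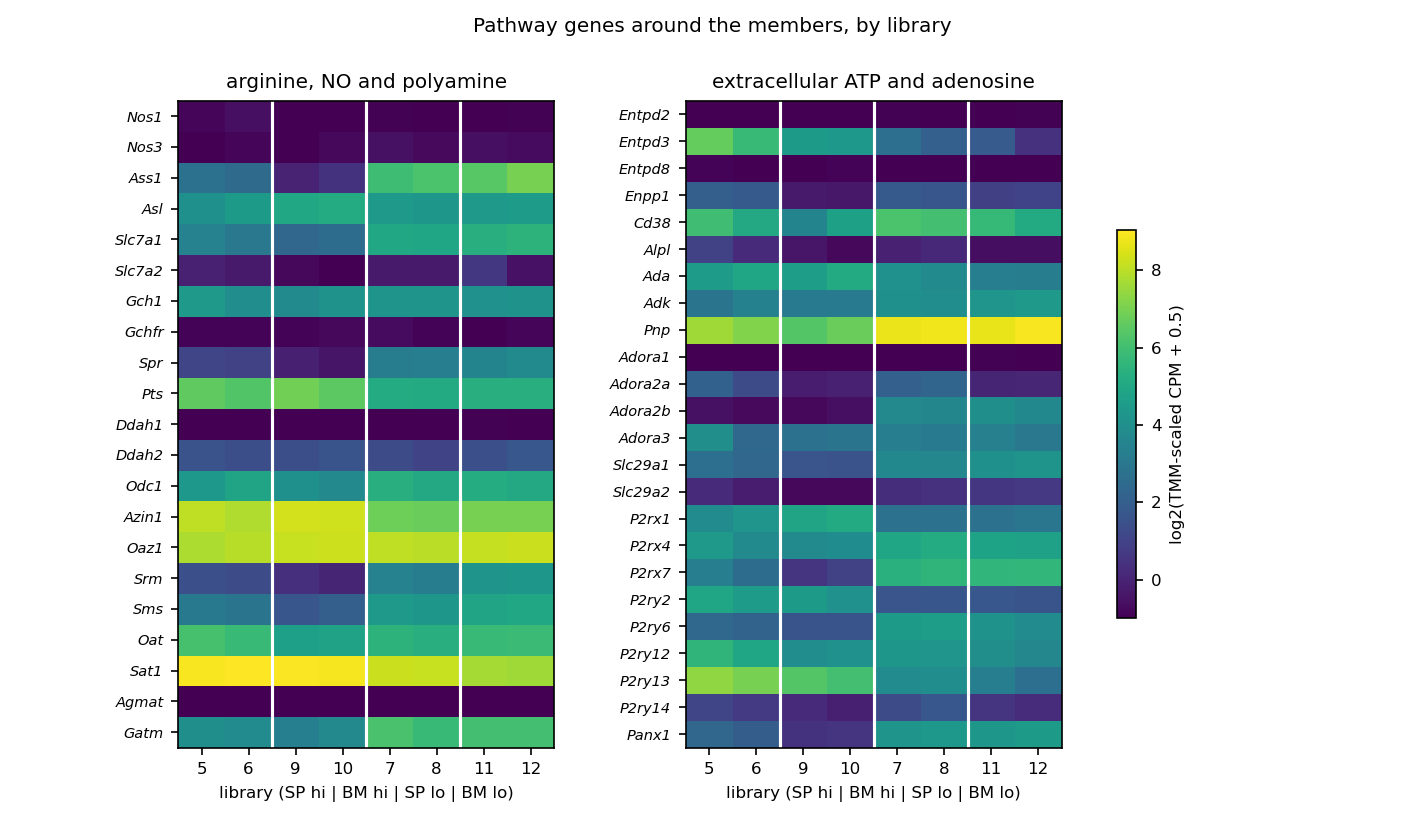
log2(TMM-scaled CPM + 0.5) of the listed arginine and adenosine genes (rows) in the 8 libraries (columns, white lines between groups), in colour from low (dark) to high (yellow). Ass1, Adora2b and P2rx7 are lighter in the 4 Gr-1lo libraries, Entpd3 and P2ry13 are lighter in the 4 Gr-1hi libraries, and Adora2a is lighter in the 4 SP libraries.

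Of the suppressive cytokines, Tgfb1 was abundant in every group and Il10 was close to the detection limit. Tgfb1 was at 108 and 92.6 CPM in SP Gr-1hi, 88.6 and 78.9 in BM Gr-1hi, 213 and 221 in SP Gr-1lo, and 171 and 189 CPM in BM Gr-1lo cells. The groups did not overlap, and both Gr-1lo groups lay above both Gr-1hi groups. The step from Gr-1lo to Gr-1hi cells was -1.10 ± 0.11 in BM (adjusted p = 1.85e-05) and -1.11 ± 0.11 in SP (adjusted p = 2.49e-05). The steps differed by -0.0065 (95% interval -0.35 to 0.34). Both pass at an FC of 2 and neither at an FC of 8, and with DESeq2's size factors in edgeR the values were -0.95 in BM and -0.98 in SP, under an FC of 2. Without library 10 the BM value was -0.94. SP exceeded BM by 0.26 in Gr-1hi (interval 0.015 to 0.51, adjusted p = 0.0939) and by 0.27 in Gr-1lo cells (interval 0.024 to 0.51, adjusted p = 0.211).

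Il10 had 7 and 4 counts in SP Gr-1hi, 5 and 5 in SP Gr-1lo, 0 and 1 in BM Gr-1hi, and 2 and 0 in BM Gr-1lo cells. All 4 SP libraries were above 3 counts and all 4 BM libraries were below, but with 24 counts in all the gene did not pass the filter. Fitted without the filter, the difference between SP and BM did not pass in Gr-1hi (adjusted p = 0.194) or Gr-1lo cells (adjusted p = 0.685).

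Of 26 listed genes that release, sense or answer TGF-beta, 21 were tested. Between Gr-1hi and Gr-1lo cells, the list median was 0.78 in BM and 0.70 in SP on the log2 scale, against -0.17 and -0.088 for all genes. With the limits used for SP against BM, 8 were higher and 4 lower in Gr-1hi cells of BM, and 9 and 4 in SP. By those limits 57.3% of all genes were called in BM and 49.6% in SP. At an FC above 8, 2 were called lower in Gr-1hi cells of BM, Eng and Smad6, and 0 higher, where 10.1% of all genes were called lower. Eng, the co-receptor endoglin, fell by 3.24 from 8.54 ± 2.03 CPM in Gr-1lo cells, and Smad6, an inhibitory SMAD, was at 1.36 ± 0.214 CPM in Gr-1lo cells and had 2 counts in Gr-1hi cells. In SP 1 was called lower, and the count was 0 without library 6 or 7 and 2 without library 5. In SP against BM, 4 of the 21 were called higher in Gr-1hi cells, where 15.5% of all genes were called in either direction. Of these Tgif1, a corepressor of SMADs, was the one above 1 CPM (1.81 ± 0.21, adjusted p = 0.000592). The count was 2 without library 5, 9 or 10 and 1 without libraries 5 and 7. In Gr-1lo cells 1 was called higher, where 4.06% of all genes were called, and the count was 0 without library 7, 8, 11 or 12. Tgfbi, a matrix protein induced by TGF-beta, had the highest mean, at 1046 CPM.

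Receptors and effectors of IL-10 were present although Il10 itself was barely counted. All 12 listed genes, 1 of which is Il4ra, were tested. Between SP and BM Gr-1hi cells, 14% of all genes were called higher in SP. In Gr-1hi cells 3 were called higher in SP than in BM: Socs3, a feedback inhibitor of cytokine receptors, at 1130 ± 157 against 270 ± 9.67 CPM (2.06 ± 0.17, adjusted p = 0.000208), the transcription factor Maf (1.29 ± 0.18, adjusted p = 0.00143) and the receptor chain Il10ra (1.06 ± 0.15, adjusted p = 0.00145). Without libraries 5 and 7, 2 were called. In Gr-1lo cells Il1rn, the IL-1 receptor antagonist, rose by 1.73 ± 0.29 and Maf by 1.02 ± 0.16 (adjusted p = 0.0147 and 0.00667), and the 2 calls became 1 without library 5 or 6 and 0 without library 12. Il1rn was also the 1 gene of the list called between the subsets, higher in Gr-1hi cells by 5.41 ± 0.33 in BM and 3.92 ± 0.30 in SP (adjusted p = 2.69e-06 and 1.47e-05). Zfp36, which destabilises cytokine mRNAs, had the highest mean of the list, at 1330 CPM.

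Il4ra, the IL-4 and IL-13 receptor alpha chain, was at 824 and 487 CPM in SP Gr-1hi and 344 and 338 CPM in BM Gr-1hi cells. In Gr-1lo cells it was at 288 and 244 CPM in SP and 211 and 163 CPM in BM. The groups did not overlap in that order. The log2 FC of Gr-1hi over Gr-1lo cells was 0.87 ± 0.23 in BM (adjusted p = 0.00960) and 1.30 ± 0.24 in SP (adjusted p = 0.00130), where it was 0.85 without library 5. The BM difference depended on the measure. It was 0.90 with upper-quartile scaling and 1.02 with DESeq2's size factors in edgeR. Limma on quantile-normalized TPM gave 0.45 in BM (adjusted p = 0.163) and 0.86 in SP (adjusted p = 0.0250). In TPM the BM subsets overlapped, at 98.4 and 91.9 in Gr-1hi against 109 and 83.1 in Gr-1lo cells. Between SP and BM the log2 FC from edgeR was 0.94 ± 0.23 in Gr-1hi cells (adjusted p = 0.0176), just under an FC of 2, and 0.51 ± 0.23 in Gr-1lo cells (adjusted p = 0.278). With upper-quartile scaling the Gr-1hi value was 1.03 and was called (adjusted p = 0.0184). The Gr-1hi value was 0.43 without library 5 (adjusted p = 0.0910) and 1.20 without library 6, where it was called. Gm44876, on the opposite strand, overlaps 9.51% of the exon bases and was at 0.0378 to 0.512 CPM.

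Of 20 listed genes of IL-4 and IL-13 signalling, 17 were tested. In Gr-1hi cells 5 were called higher and 1 lower in SP than in BM, against 14% and 1.48% of all genes. They included Irf4, a transcription factor downstream of IL-4 (3.03 ± 0.32, adjusted p = 0.000461), Socs1, an inhibitor of JAK kinases (1.94 ± 0.49, adjusted p = 0.0234), and Il2rg, the shared gamma chain (1.25 ± 0.18, adjusted p = 0.00176). The 5 became 2 without library 5, 2 without libraries 5 and 7, and 3 without library 6 or 9, and the 1 lower became 3 without library 6. In Gr-1lo cells Il2rg was the 1 call (1.08 ± 0.17, adjusted p = 0.00925), with 2 calls without library 5, 6 or 11 and 0 without library 8. The markers of alternative activation did not move together between the subsets. Retnla, a secreted resistin-like protein, was at 6.14 ± 0.457 CPM in BM Gr-1hi and 3.26 ± 0.898 CPM in SP Gr-1hi cells, and had 3 counts in BM Gr-1lo and 1 count in SP Gr-1lo cells. The lectin receptors Mgl2 and Clec10a were higher in Gr-1lo cells, Clec10a at 20.7 ± 0.113 against 0.815 ± 0.307 CPM in BM and 16.4 ± 1.10 against 0.168 ± 0.103 CPM in SP. Mgl2 was at 11.6 ± 1.14 CPM in BM Gr-1lo and 8.76 ± 3.55 CPM in SP Gr-1lo cells, with 3 counts in BM Gr-1hi and 9 counts in SP Gr-1hi cells. Mgl2 and Clec10a are similar in sequence and could share reads, as could Chil3 and its relatives. Chil3, a chitinase-like protein, had the highest mean of the list, at 3179 CPM.

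Il4i1, the secreted L-amino acid oxidase, was lowest in BM Gr-1hi cells. It was at 11.6 and 5.96 CPM in SP Gr-1hi, 5.40 and 5.65 in SP Gr-1lo, 3.48 and 3.53 in BM Gr-1lo, and 1.87 and 0.949 CPM in BM Gr-1hi cells. SP exceeded BM in both subsets with no overlap. SP Gr-1hi library 6 lay just above the SP Gr-1lo libraries in CPM but below them in TPM (2.82 against 3.99 and 4.01). The rise from BM to SP was called in Gr-1hi cells, at 2.63 ± 0.38 on the log2 scale (adjusted p = 0.00191). It was called in all 15 alternative analyses, between 1.65 with limma on quantile-normalized TPM and 3.14 without library 9, and was 1.98 without library 5 and 2.08 without libraries 5 and 7. In Gr-1lo cells it was 0.66 ± 0.33 (95% interval -0.10 to 1.42, adjusted p = 0.316).

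Between the subsets, the log2 FC of Il4i1 in Gr-1hi over Gr-1lo cells was -1.30 ± 0.39 in BM (adjusted p = 0.0140), a difference that was -0.82 without library 10 (adjusted p = 0.127). In SP the value was 0.67 ± 0.33 (interval -0.076 to 1.42, adjusted p = 0.0942), which did not pass, and it was 0.084 without library 5 and 0.054 without libraries 5 and 7. The difference between the tissues was called, at 1.97 ± 0.51 (adjusted p = 0.0348), in a direction called for 7.74% of all genes, but this call ended without library 5, 7, 8, 10, 11 or 12 (adjusted p from 0.0684 to 0.103), without libraries 5 and 7 (1.40, adjusted p = 0.128) and with limma (1.32, adjusted p = 0.0990). Tbc1d17, on the opposite strand, overlaps 83.9% of the Il4i1 exon bases, and Nup62, on the same strand, 2.38%. The library kit keeps strand and the label of the deposited counts carries the word stranded, while the counter's own setting is not given in the sources used here. Between SP and BM Gr-1hi cells, Tbc1d17 differed by 0.035 (adjusted p = 0.793) and Nup62 by 0.22 (adjusted p = 0.180).

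Lymphoid markers and Il4i1 were both higher in SP Gr-1hi than in BM Gr-1hi cells. Between the BM subsets, the summed B cell markers were low, at 19.9 and 16.3 CPM in Gr-1hi and 8.07 and 9.90 CPM in Gr-1lo cells. Il4i1 was lower in BM Gr-1hi than in BM Gr-1lo cells (log2 FC -1.30). At an FC of 2, 7 of 10 B cell and 6 of 10 T cell markers were higher in BM Gr-1hi cells, and 1 B cell and 1 plasma cell marker were lower. By that limit 57.3% of all genes were called between the BM subsets, in either direction. All 10 B cell markers were called higher in SP Gr-1hi than in BM Gr-1hi cells, as were 9 of 10 T cell markers and 4 of 4 tested plasma cell markers. The summed T cell markers were at 120 and 72.7 CPM in SP Gr-1hi against 10.5 and 6.89 CPM in BM Gr-1hi cells, and the plasma cell markers at 125 and 67.8 against 8.64 and 7.14 CPM. Of these 3 lists, the plasma cell marker Tnfrsf17 was at 0 in libraries 6, 9, 10 and 11 and the B cell marker Cr2 in library 11. Library 5 held the highest B cell, T cell and plasma cell sums and also the highest Nos2, Arg2, Entpd1, Il4ra and Il4i1. In Gr-1lo cells the T cell markers were at 24.9 and 37.4 CPM in SP against 2.38 and 2.36 CPM in BM. Splenic macrophage markers were at 947 and 797 CPM in SP Gr-1hi and 552 and 501 CPM in BM Gr-1hi cells, with 5 of 8 called higher in SP, and Timd4 was at 0 in libraries 11 and 12. The part of these cells in the differences between SP and BM was not tested.

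**Figure D4:**
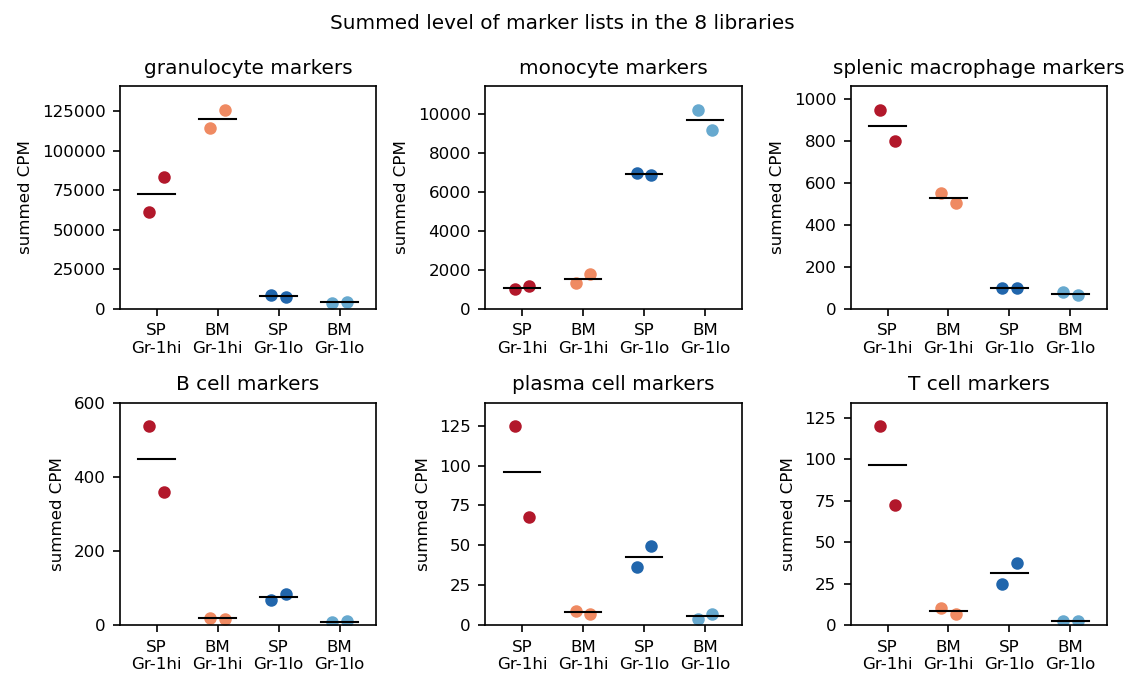
Summed TMM-scaled CPM of 6 marker lists in each library, by group, with points for libraries, bars for the mean of 2 and a linear axis from 0. B cell, plasma cell and T cell markers are highest in library 5 (537, 125 and 120 CPM), granulocyte markers in BM Gr-1hi cells and monocyte markers in BM Gr-1lo cells.

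Of 19 listed genes for amino acid oxidation and tryptophan breakdown, 14 were tested. In Gr-1hi cells 4 were called higher in SP than in BM and 0 lower, against 14% and 1.48% of all genes. Among them, Kynu was at 2.46 ± 1.13 CPM in SP and 0.155 ± 0.0446 CPM in BM, where it had only 8 counts. Kmo was at 6.45 ± 0.421 CPM in SP and 0.616 ± 0.237 CPM in BM, on 31 counts. Kynu and Kmo, enzymes of the kynurenine route, rose by 3.95 ± 0.52 and 3.40 ± 0.27, and Ahr, the receptor for kynurenine and related ligands, by 2.90 ± 0.34 (adjusted p = 0.00111, 0.000163 and 0.000930), and 4 were called without libraries 5 and 7. Slc7a11, a cystine transporter, was the 1 call in Gr-1lo cells (1.51 ± 0.28, adjusted p = 0.0165), with 0 without library 8, 11 or 12. It was also called higher in Gr-1hi than in Gr-1lo cells, by 5.29 ± 0.28 in BM and 3.53 ± 0.24 in SP. In BM 5 were called lower in Gr-1hi cells, among them Kynu (-5.80 ± 0.46), Maoa, a monoamine oxidase (-4.35 ± 0.39), and Kmo (-3.90 ± 0.26), and 3 without library 9. In SP 2 were called lower, Maoa (-3.87 ± 0.40) and Ahrr, the repressor of Ahr (-3.49 ± 0.66), and 1 without library 6. Tiparp, an Ahr target, had the highest mean of the list, at 67.8 CPM.

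The 13414 tested genes with a mean of at least 1 CPM were ranked by Pearson's r of log2(CPM + 0.5) with each of the 7 tested genes, over 8 libraries that share their groups and depth. For Il4i1 the nearest were Slc39a13 (r = 0.993), Mefv (0.987) and Abhd4 (0.981), and only 31 genes exceeded 0.95. Mefv, which encodes pyrin, was at 206 CPM in SP Gr-1hi and 53.8 CPM in BM Gr-1hi cells. For Nt5e they were Agap1, Ntng2 and Ppp1r42 (r of 0.999 or more), among 2706 genes above 0.95. For Entpd1 they were Arid4a, Cd300lf and H2-T24, and for Arg2 Clec4d, Med13 and Zfp292, all at 0.998 or more. Nos2 was nearest to D430042O09Rik (0.993), Plekho2 (0.992) and Cd300ld2 (0.990), Tgfb1 to Lrrc8c (0.993), Fbxo4 (0.992) and Arsi (0.992), and Il4ra to Ap1m2 (0.989), Myd88 (0.987) and Cux1 (0.986). A high r was common where the subsets differ strongly and is a description only.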

How the data were processed

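CD11b+Gr-1hi and CD11b+Gr-1lo cells were sorted from the spleen and bone marrow of sanroque mice, and stranded mRNA libraries were sequenced. According to the submitters' processing notes and the study's methods, the authors checked reads with FastQC, aligned them to GRCm38 with STAR and made the deposited counts with featureCounts, as raw counts of reads per gene without normalization. Quality trimming and the settings of the counter can shift low counts and genes that overlap others.

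The 54188 genes were tested in edgeR 4.0.16 (R 4.3.3). Libraries were grouped by their deposited labels. After filterByExpr at its defaults, 17650 genes were kept, scaled by TMM and fitted with robust quasi-likelihood to all 8 libraries, with 1 term per group, which left 4 residual degrees of freedom. The Benjamini-Hochberg adjustment ran over all genes tested. The interaction was the Gr-1hi to Gr-1lo difference in SP minus that in BM. SE is the size of the log2 FC divided by the square root of F. CPM are TMM-scaled, and means have the SD of 2 libraries. TPM used exon lengths of GENCODE M21, which holds 53947 of the genes, and genes without a length have none. The scripts were checked on simulated data.

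Alternatives were other scalings, no filter, DESeq2 1.42.0, limma 3.58.1 on log2(TPM + 1) after quantile normalization (genes with a TPM sum of at least 10), the 4 libraries compared alone, and libraries left out. The genes, lists, marker lists, tests and alternatives were chosen with earlier results of these data known. Named from each pathway list were the called genes with the 3 largest rises and falls among genes that reached 1 CPM in either group, and the gene of highest mean CPM. For each tested member, the 3 genes of highest r were named. The 2 libraries per group limit the precision of every fold change.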

Additional observations from a re-analysis of the deposited data

Results flagged for a closer look

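For 2 genes the difference between Gr-1hi and Gr-1lo cells was not the same in SP and BM, by edgeR's quasi-likelihood test of the interaction over 17650 genes. For Nt5e the interaction was -3.49 on the log2 scale (SE 0.57, adjusted p = 0.00854). The gene was higher in Gr-1hi than in Gr-1lo cells in both tissues, by 8.28 in BM and by 4.79 in SP, with both Gr-1hi libraries above both Gr-1lo libraries in each. For Il4i1 the interaction was 1.97 (SE 0.51, adjusted p = 0.0348), with a difference of Gr-1hi from Gr-1lo cells of -1.30 in BM (adjusted p = 0.0140) and 0.67 in SP, which did not pass (adjusted p = 0.0942) and was 0.084 without library 5. The Il4i1 interaction was no longer called in 8 of 14 alternative analyses. Of all genes, 9.74% passed the same test.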

How the results depend on the processing

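No paired analysis was possible because no replicate number is shared between groups and no label ties libraries to a mouse, although SP and BM cells may come from the same mice. In Gr-1lo cells, the count of genes called between SP and BM, 0 in the analysis reported, was 1 without the filter, 2 with DESeq2, 2 with only the 4 libraries compared, 1 without libraries 5 and 7, and 0 to 2 with 1 library left out. In Gr-1hi cells it was 2 and became 4 with upper-quartile scaling, and ranged from 2 to 4 with 1 library left out. Between Gr-1hi and Gr-1lo cells of SP the 4 calls became 2 with limma, where Nos2 and Nt5e no longer reached the fold change. The 2 interaction calls became 0 with limma and 1 without libraries 5 and 7, and ranged from 1 to 2 with 1 library left out. Interactions that were not called changed sign for Nos2 with limma (0.22), for Tgfb1 with upper-quartile scaling (0.035) and limma (0.014), and for Entpd1 without libraries 5 and 7 (-0.21). With 1 library left out they ranged through 0 for Arg2 (-0.74 to 0.022), Tgfb1 (-0.22 to 0.066), Il4ra (-0.091 to 0.67) and Entpd1 (-0.19 to 0.26). Over all comparisons and alternatives, 19 values of single genes lost their call with the direction kept and 14 gained one. The cause of these changes was not tested. With 1 library of a group left out, the lone library was assumed to vary like the other groups. DESeq2's size factors in edgeR moved the median log2 FC of all genes between the subsets from -0.17 to -0.025 in BM and from -0.088 to 0.045 in SP. With 6 and 24 counts in all, depth limits Arg1 and Il10.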
